A study of Mus musculus with 2 samples.

Results

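The replication-dependent histone genes of the mouse lie mostly in a cluster on chromosome 13, named Hist1, which is split into 2 parts. Regions enriched for the histone variant H2A.Z were examined in a window over each part in the mm9 genome build, from 21.75 to 22.15 Mb (the first window, 400 kb) and from 23.55 to 24.05 Mb (the second window, 500 kb). A region belonged to a window when it overlapped it by at least 1 bp, so membership rested on position alone. The 4 region lists held 127 such regions of 421421 in all. The looser lists (threshold 1e-09), used throughout unless stated, held 33 wild-type and 34 K3R3 regions in the windows, and the stricter lists (1e-12) held 30 and 30.

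The regions came from chromatin immunoprecipitation and sequencing of mouse embryonic stem cells with 1 library per group. Both groups were KH2 embryonic stem cells carrying a lentiviral, doxycycline-inducible H2A.Z fused at its C-terminus to YFP, induced with 1 µg/ml doxycycline, sorted for YFP and given hairpins that target the endogenous H2A.Z transcript in its 3′ UTR. V6.5 (129SvJaexC57BL/6) is named as the strain. One group carried wild-type H2A.Z and the other K3R3, in which the labels place arginine at lysines 119, 120 and 123; the antibody was Abcam Ab290, raised against GFP. The tagged protein was therefore an added copy under a CMV promoter, and which of the hairpins each line received is not given in the sources used here. Differences between the groups rest on 1 library each, without replicates, and were not tested. Read depth is unknown. Intervals are 95%, Wilson for shares and ratios and exact Poisson for densities, and cover counting error only.

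H2A.Z takes the place of ordinary H2A in a nucleosome and is best known at promoters and enhancers, where in embryonic stem cells it marks both active genes and genes held ready for activation. Its C-terminal lysines are sites of mono-ubiquitylation. H2A.Z is encoded outside the Hist1 cluster and is made throughout the cell cycle. The replication-dependent genes instead code for the H1 linker and the H2A, H2B, H3 and H4 core histones, are expressed in S phase to package new DNA, lack introns and mostly give transcripts without a poly(A) tail.

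The RefSeq gene table at hand is of GRCm38.p6, not mm9, so it served for names and order only and no region was placed on a gene, exon, intron or UTR. By name it holds 56 genes of the Hist1h series on chromosome 13. The first part runs from H2bc13 to H2bc11 with 24 genes, namely 1 for H1, 8 for H2A, 8 for H2B, 2 for H3 and 5 for H4. Of these 24, 1 is a pseudogene. The second part runs from H4c8 to H2ac1 with 31 genes, namely 5 for H1, 6 for H2A, 7 for H2B, 7 for H3 and 6 for H4. The last of the 56, the pseudogene H2af-ps2, lies elsewhere. Among the histone genes of the first part the table lists 31 tRNA genes, the zinc finger gene Zfp184, Pom121l2 and Prss16, the last coding for a serine protease of the thymus. Among those of the second part it lists Hfe, whose product controls iron uptake, Trim38, and the solute carriers Slc17a1 to Slc17a4. Between the parts it lists 75 genes and pseudogenes of vomeronasal receptors, which serve pheromone sensing in the nose, together with 46 tRNA genes and the butyrophilin genes Btn1a1 and Btn2a2.

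The promoters of these genes hold letter matches to the elements the family is known for, and short stretches with such matches are printed as examples. Of the 55 genes in the 2 parts, 51 had an entry among the RefSeq promoters (GRCm38.p6, 250 bases before to 50 after the start). The 30 bases below are on the gene's strand, 5′ to 3′, with the matching letters in capitals. The elements are the H1 box AAACACA, the octamer ATTTGCAT known from H2B genes, the TATA box TATAAA and the CCAAT box.
H1f5 (H1): tggggactaacAAACACAatttgggattgt
H2bc14 (H2B): ctctcgtctctATTTGCATaacagcgtgta
H3c10 (H3): ctcggccgtctgTATAAAttttggtggttg
H4c12 (H4): tccgcccgccgcagTATAAAaaggcggcgc
H2ac13 (H2A): tgtactaacagtCCAATcaaaacaagggat
Searched on both strands, TATAAA was found in 31 of 51 histone promoters (60.8%) against 15.7% of the promoters of all 27025 genes with an entry, and CCAAT in 43 (84.3%) against 41.1%. CCAAT was in every H1, H2A, H2B and H3 promoter with an entry and in 3 of 11 H4 promoters. AAACACA was in 5 of 6 H1 promoters against 8.22% of all, and ATTTGCAT in 6 of 14 H2B and 5 of 13 H2A promoters against 1.97% of all. No motif searched contains another. Divergent H2A and H2B genes lie close together, so their promoter windows can share sequence. These are matches of letters, and none was tied to an enriched region. Each printed match had to lie before the start, a few bases clear of it and of the far end of the promoter entry. Within those limits no particular distance from the start was required. In the printed stretches TATAAA of H4c12 begins 16 bases before the start and ATTTGCAT of H2bc14 25 bases before it. Whether they act as these elements was not tested.

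**Figure D1:**
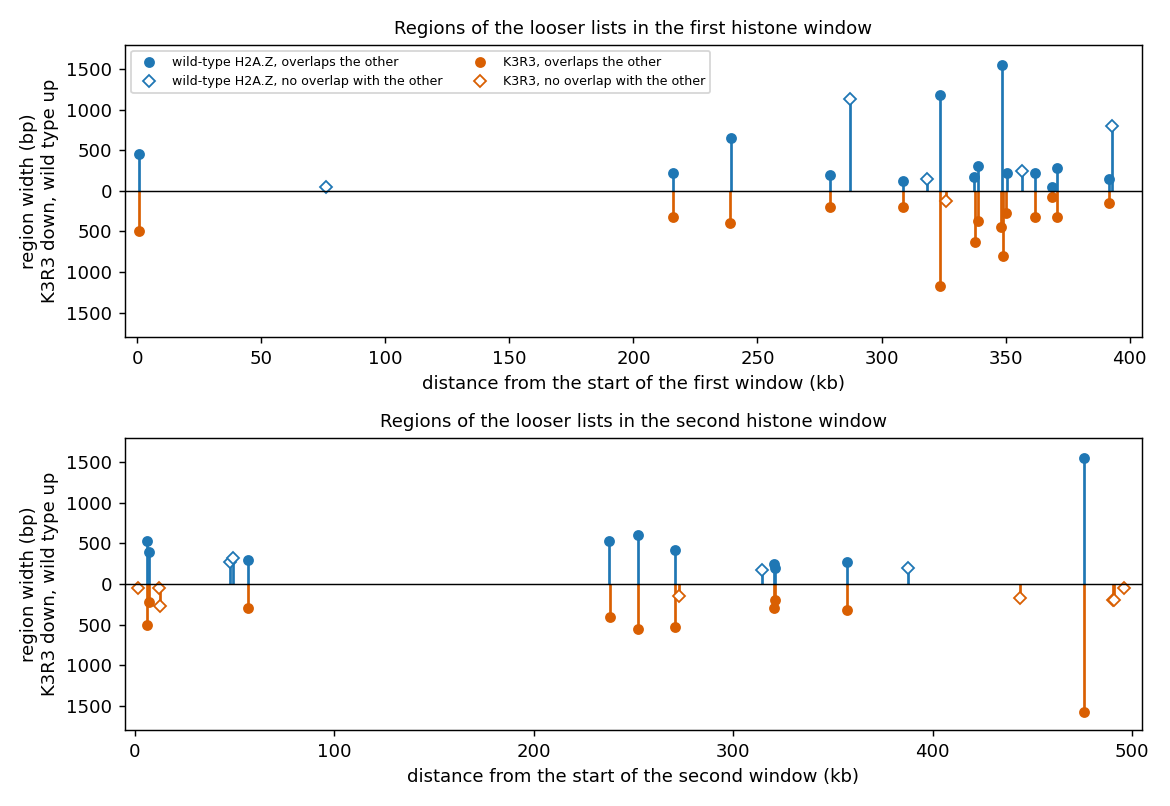
Position and width of every region of the looser lists in the first window (top) and the second window (bottom). The horizontal axis is the distance from the window's start in kb and the vertical axis the region's width in bp, wild type up and K3R3 down; filled circles overlap a region of the other library, open diamonds do not. Regions crowd towards the end of the first window, and both windows hold a long stretch without any.

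The regions were spread unevenly over both windows. In the first window the looser lists placed 1 wild-type and 1 K3R3 region in the first 50 kb, 1 wild-type region in the next 50 kb and none in the following 100 kb. By contrast, the last 100 kb of the window held 13 wild-type and 12 K3R3 regions. In the second window the first 50 kb held 4 wild-type and 5 K3R3 regions, and the 100 kb from 100 to 200 kb held none in either library. The last 50 kb held 1 wild-type and 4 K3R3 regions.

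In each window the longest stretch with no region in any of the 4 lists took up about the same share of its length. In the first window it ran from 21826301 to 21965850, which is 139.6 kb or 34.9% of the window. In the second it ran from 23606776 to 23782550, which is 176 kb or 35.2%. Taken by itself, the looser K3R3 list had a longer bare stretch in the first window, 215 kb from 21750926 to 21965850. The longest bare stretch there was 215 kb in the stricter list of either library as well. Only the looser wild-type list broke it, with a region of 50 bp (21826251 to 21826300) found in no other list. The share of 34.9% thus rests on that single region. In the second window the bare stretch was 181 kb in either looser list. Long bare stretches were common on the chromosome. Of 5578 region-free stretches on chromosome 13, 130 (2.33%) were at least as long as that of the first window and 87 (1.56%) at least as long as that of the second. Stretches of at least 100 kb made up 37.4% of the length between the chromosome's first and last region. Whether the bare stretches lie over the histone genes was not tested, since no mm9 annotation was used here, and neither was how much of them reads could be aligned to.

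**Figure D2:**
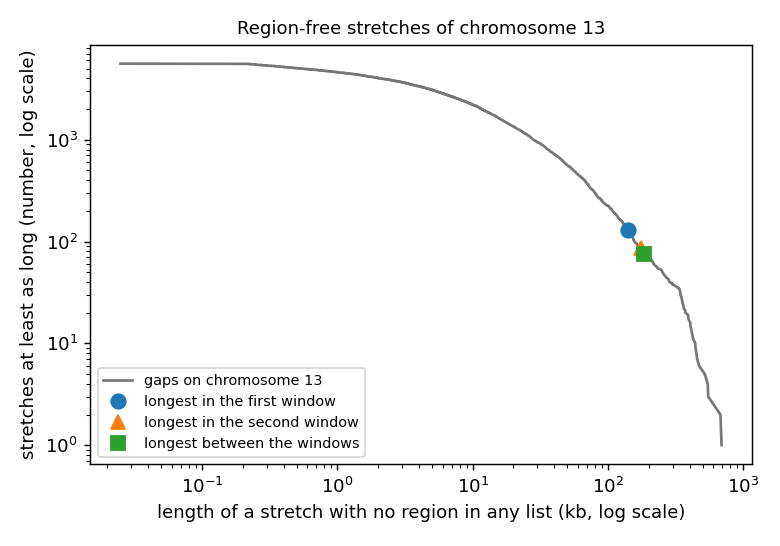
Lengths of stretches of chromosome 13 with no region in any of the 4 lists (horizontal axis, kb, log scale) against the number of stretches at least as long (vertical axis, log scale). The longest in the first window (139.6 kb), in the second window (176 kb) and between them (184 kb) lie in the tail, where 130, 87 and 75 stretches are at least as long.

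In both libraries the counting interval of each window's density included the density of the rest of the chromosome. The first held 19 wild-type and 16 K3R3 regions, or 47.5 (interval 28.6 to 74.2) and 40.0 (22.9 to 65.0) per Mb. The second held 14 and 18, or 28.0 (15.3 to 47.0) and 36.0 (21.3 to 56.9) per Mb. The rest of chromosome 13 outside the windows and the stretch between them held 3651 wild-type and 4723 K3R3 regions, or 30.9 and 40.0 per Mb. The highest value, the wild-type density of the first window, was 1.53 times that of the rest of the chromosome, and 1.19 to 1.60 times under the alternatives run, whereas the K3R3 density was 1.00 times that of the rest. In the second window the densities were 0.905 and 0.899 times those of the rest. With the stricter lists the wild-type value of the second window was 1.02. With its edges moved in by 50 kb the K3R3 value fell to 0.562. That setting also turned the joint wild-type density of the 2 windows from 1.18 to 0.924 times the rest, since regions lay near the edges.

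Covered length gave the same order of the 4 stretches in the wild type. Wild-type regions covered 8.15 kb of the first window and 6.03 kb of the second, against 6.33 and 6.05 kb for K3R3. Per Mb this was 20.4 and 12.1 kb for the wild type, where the rest of the chromosome had 13.5 kb. For K3R3 it was 15.8 and 12.1 kb, where the rest had 16.3 kb. Among the other 291 tiles of 400 kb along the chromosome, 63 held more wild-type regions than the first window and 109 held more K3R3 regions, and the tiles' medians were 9 and 12. Among the other 233 tiles of 500 kb, 96 held more wild-type and 90 more K3R3 regions than the second window, with medians of 11 and 15. Both windows were therefore above the middle of the chromosome's tiles and below its richest ones in both libraries.

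The stretch between the windows was poor in both libraries. Over its 1.4 Mb it held 22 wild-type and 26 K3R3 regions, or 15.7 (interval 9.85 to 23.8) and 18.6 (12.1 to 27.2) per Mb. This is 0.508 and 0.464 times the density of the rest of the chromosome and below it by more than counting error. Counting error leaves out how unevenly regions lie along the chromosome. Quartiles of the other 400 kb tiles were 4 and 18 wild-type regions and 5 and 23.5 K3R3 regions. The stretch was not ranked among tiles of its own length, so whether it is unusual was not tested. Covered length was 5.79 and 6.25 kb per Mb. No wild-type region there was closer than 3100 bp to its neighbour, and none in either library reached 1000 bp in width. In the wild type a single bare stretch of 407 kb (22675726 to 23082500) took up 29.1% of it, and the longest in K3R3 was 184 kb. The first window's right edge lay on this poor stretch. The last wild-type region inside it ended 6675 bp before the edge and the next began 110.1 kb after it, and in K3R3 the distances were 8175 bp and 89.4 kb. At the other edges the nearest regions lay closer together, least so in the wild type at the second window's right edge. At the left edge of the first window, regions of 125 bp in both libraries lay 5625 bp outside, and regions of 450 bp (wild type) and 500 bp (K3R3) began 450 and 425 bp inside. At the left edge of the second window, regions of 225 bp in both lay 4275 bp outside, and the first inside were a wild-type region of 525 bp at 6000 bp and a K3R3 region of 50 bp at 1450 bp. At its right edge the last wild-type region inside, 1550 bp wide, ended 23.3 kb before the edge and the next, of 300 bp, began 32.9 kb after it. For K3R3 both neighbours of that edge were 50 bp wide, 4125 bp inside and 9400 bp outside. No region crossed any edge.

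**Figure D3:**
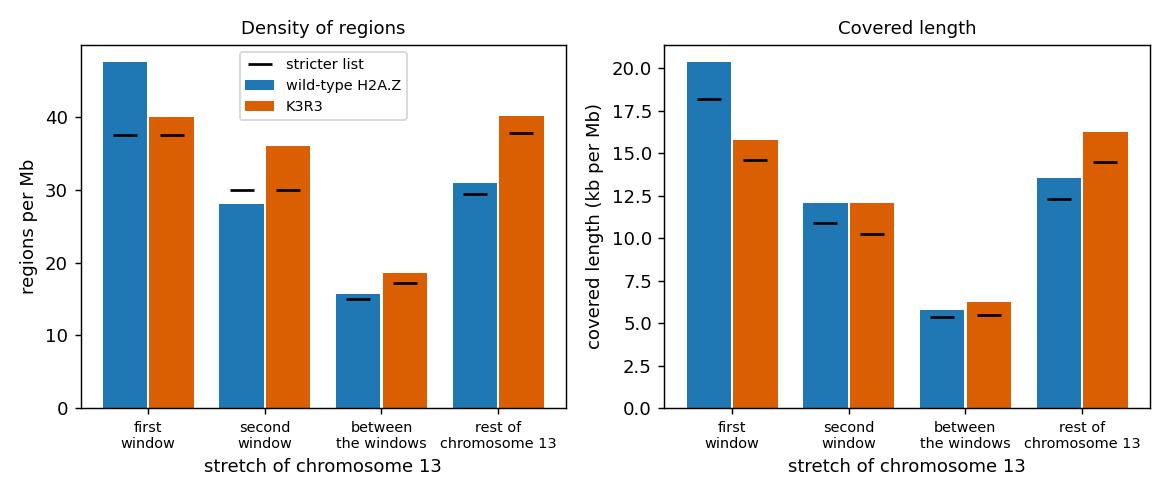
Regions per Mb (left) and covered length in kb per Mb (right) in the first window, the second window, the stretch between them and the rest of chromosome 13. Bars give the looser lists of the wild type (blue) and K3R3 (orange), black marks the stricter lists, and each bar is 1 library. Wild type exceeds K3R3 in regions per Mb only in the first window (47.5 against 40.0), where the stricter lists are level at 37.5.

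In the first window the wild type had more regions than K3R3, unlike on the rest of the chromosome. The ratio of their counts there, wild type over K3R3, was 1.19 (interval 0.618 to 2.28), against 0.773 on the rest of chromosome 13. Of the other 163 tiles of 400 kb with at least 10 K3R3 regions, 1 had a higher ratio, 7 had more wild-type than K3R3 regions, and the median was 0.765. In the second window the ratio was 0.778 (0.392 to 1.54), and between the windows 0.846 (0.483 to 1.48). All 3 intervals include the value of the rest of the chromosome, so with so few regions the difference of the first window was not detectable beyond counting error. In the stricter lists each window held 15 regions of each library. The 4 wild-type regions of the first window that the stricter wild-type list lacked were at most 150 bp wide.

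Median widths were 225 bp for wild-type and 325 bp for K3R3 regions of the first window, and 312.5 and 250 bp in the second, where the rest of the chromosome had 300 bp in both libraries. The order of the libraries was thus opposite in the 2 windows, but the difference was small in the stricter lists. There the medians were 250 bp (wild type) and 275 bp (K3R3) in the first window, and 275 and 250 bp in the second. Coordinates themselves come in steps of 25 bp. Over both windows the medians were 275 bp (quartiles 200 and 525) and 300 bp (200 and 437.5). Regions of at least 1000 bp numbered 4 of 33 in the wild type (12.1%) and 2 of 34 in K3R3 (5.88%), where the rest had 9.42% and 7.30%. The median gap between neighbouring wild-type regions was 8 kb in the first window and 17.7 kb in the second, against 9.95 kb on the rest. For K3R3 it was 11.3 and 13.4 kb, against 7.45 kb on the rest. Pooled over both windows the medians were 9.58 and 11.3 kb. Neighbours close to each other were found in both libraries. In all, 7 of 31 wild-type gaps (22.6%) and 10 of 32 K3R3 gaps (31.3%) were under 2000 bp, against 21.7% and 24.8%. These shares are counts of few gaps and were not tested.

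Merging all 4 lists gave 44 places, 20 in the first window and 24 in the second. Both libraries marked 25 of them, 15 in the first window and 10 in the second. The wild type alone marked 4 and 5, and K3R3 alone marked 1 and 9. Of all 44 places, 20.5% were thus marked by the wild type alone, against 13.5% of the 138196 places on all chromosomes and 10.1% on the rest of chromosome 13. K3R3 alone marked 22.7%, against 24.5% on all chromosomes and 30.8% on the rest of chromosome 13. These shares rest on 9 and 10 places and were not tested. All 4 lists held 21 places, and 8 places stood in a single list.

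About 3 in 4 regions of either library in the windows were shared with the other. Of the wild-type regions, 24 of 33 (72.7%, 55.8 to 84.9) overlapped a K3R3 region, where the share was 81.6% over all chromosomes and 84.8% on the rest of chromosome 13. The windows contributed 14 of 19 (73.7%) and 10 of 14 (71.4%). Of the K3R3 regions, 25 of 34 (73.5%, 56.9 to 85.4) overlapped a wild-type region, against 71.9% over all chromosomes and 65.9% on the rest of chromosome 13. In the first window this was 15 of 16 (93.8%, 71.7 to 98.9), in the second 10 of 18 (55.6%, 33.7 to 75.4). In the stricter lists the K3R3 shares were 13 of 15 (86.7%, 62.1 to 96.3) and 10 of 15 (66.7%, 41.7 to 84.8), and with edges moved in by 50 kb the second window gave 77.8%. The gap between the windows was thus smaller in the stricter lists, where their intervals overlap widely. Between the windows 19 of 22 wild-type regions (86.4%) and 19 of 26 K3R3 regions (73.1%) were shared.

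The 5 widest regions of the second window lay at the same 5 places in both libraries, whereas in the first window the 2 libraries had only the places at 22072926 and 22097751 in common among their 5 widest. The widest place of the second window was a wild-type region of 1550 bp (24025201 to 24026750) and a K3R3 region of 1575 bp (24025176 to 24026750). The previous wild-type region lay 87.7 kb before it and no wild-type region of the window followed it. K3R3 had a region of 175 bp before it (23993726 to 23993900) and regions of 200, 200 and 50 bp after it, at 24040176, 24040676 and 24045826. In the first window a region of 1175 bp was found in both libraries, at 22072926 to 22074100 in the wild type and 25 bp further left in K3R3. The widest wild-type region there (22097751 to 22099300, 1550 bp) was split in K3R3 into regions of 450 bp (22097751 to 22098200) and 800 bp (22098426 to 22099225), which together covered 80.6% of it. It was the only shared place in the windows with more than 1 region of a library. The stricter lists gave the same picture, with a wild-type region of 1525 bp and K3R3 pieces of 425 and 800 bp. The wild-type region at 21988826 to 21989475 measured 650 bp against 400 bp in K3R3.

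The other wide members of the second window matched closely. With the wild type given first, the place at 23802126 measured 600 and 550 bp, and that at 23556001 measured 525 and 500 bp. The place at 23787726 measured 525 and 400 bp, and that at 23820401 measured 425 and 525 bp. K3R3 covered at least 76.2% of each of the 5 widest wild-type regions of the second window, and wild-type regions covered at least 81.0% of each of the 5 widest K3R3 regions there. In the first window 2 of the 5 widest wild-type regions had no K3R3 region over them in the looser list.

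Those 2 were the widest regions found in a single looser list. The wild-type region at 22036576 to 22037700 was 1125 bp wide, and 1100 bp in the stricter list. Neither K3R3 list held a region over it, and the nearest looser K3R3 region lay 7300 bp away. The wild-type region at 22142526 to 22143325 was 800 bp wide, and 750 bp in the stricter list. Here the looser K3R3 list had nothing, but the stricter K3R3 list held a region of 650 bp (22142626 to 22143275). Only the former was therefore without K3R3 in both lists.

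Counted as library-specific when a stricter region overlapped no looser region of the other library, 8 of 30 wild-type regions (26.7%, 14.2 to 44.4) and 6 of 30 K3R3 regions (20.0%, 9.51 to 37.3) qualified. The shares over all chromosomes were 17.8% and 25.7%, and on the rest of chromosome 13 they were 14.0% and 30.7%. The intervals of the 2 libraries overlap, and with the looser list used for both libraries the counts were equal, 9 and 9. With 50 kb less at each edge the counts were 4 and 3. Absence from the stricter list of the other library as well left 7 and 6.

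The first window held 3 wild-type-only regions and 1 K3R3-only region. The wild-type-only regions were those at 22036576 and 22142526 described above and a region of 250 bp at 22106351 to 22106600, the same in both wild-type lists. The K3R3-only region, 100 bp at 22075801 to 22075900, lay 1700 bp from a wild-type region. The second window held 5 of each library, all narrow. The wild-type-only regions were 250 bp at 23597801 to 23598050, 275 bp at 23599326 to 23599600, 100 bp at 23864551 to 23864650, 175 bp at 23937301 to 23937475 and 150 bp at 23958051 to 23958200. The first pair were neighbours, with 8425 and 6875 bp to the nearest looser K3R3 region. The K3R3-only regions were 250 bp at 23562401 to 23562650, 225 bp at 23782551 to 23782775, 25 bp at 23993851 to 23993875, 150 bp at 24040201 to 24040350 and 175 bp at 24040676 to 24040850. The last pair were neighbours as well and lay 13.5 and 13.9 kb from the nearest looser wild-type region. The wild-type region at 23958051 and the K3R3 region at 23782551 were absent from the looser list of their own library.

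At the 24 places shared by the looser lists, 14 in the first window and 10 in the second, K3R3 was wider at 13 (54.2%), the wild type at 6 (25%), and 5 had equal widths. On the rest of the chromosome K3R3 was wider at 58.1% and the wild type at 28.0% of shared places. In the stricter lists K3R3 was wider at 10 and the wild type at 9 of 22 places in the windows. The log2 of wild-type over K3R3 width averaged -0.15 with a median of -0.09, beside an average of -0.18 and a median of -0.09 at the 3060 shared places on the rest of the chromosome. In the stricter lists the mean was 0.031, so its sign was not stable. By window, the mean was -0.30 in the first, where K3R3 was wider at 9 of 14 places (6 of 12 in the stricter lists), and 0.059 in the second, with 4 places each way. At the 23 places with a single region of each library, the midpoints lay a median of 25 bp apart, and at 21 of them within 100 bp.

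Single places moved these means. At 22087176 the wild-type region was 175 bp wide and that of K3R3 625 bp, a log2 ratio of -1.84. The stricter wild-type list kept 125 bp there and the stricter K3R3 list had no region. The next largest ratios in favour of K3R3 in the first window were 125 against 200 bp at 22058676 (log2 ratio -0.68) and 50 against 75 bp at 22118651 (-0.58). In favour of the wild type stood the places at 21988826 (0.70) and 22097751 (0.31), the only ones in that window. In the second window the largest were 400 against 225 bp at 23556751 (0.83), 525 against 400 bp at 23787726 (0.39) and 600 against 550 bp at 23802126 (0.13). On the side of K3R3 they were 425 against 525 bp at 23820401 (-0.30), 250 against 300 bp at 23870426 (-0.26) and 275 against 325 bp at 23906851 (-0.24). Except at 22087176, at 23556751 and at 21988826, no width at a shared place differed by over 1.6 times between the libraries. Since coordinates come in steps of 25 bp, small differences at narrow places are of 1 or a few steps.

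**Figure D4:**
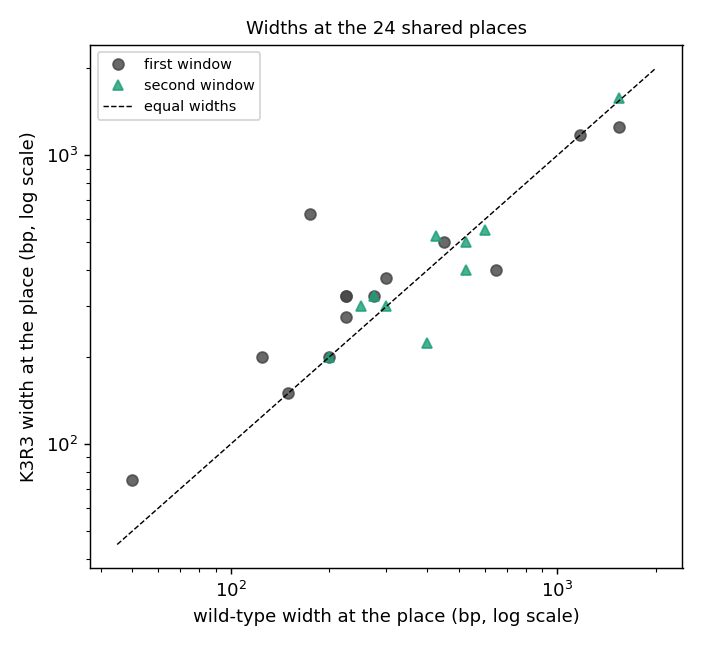
Wild-type width (horizontal) against K3R3 width (vertical) in bp, both on log scales, at the 24 places shared by the looser lists; circles are the first window, triangles the second, some points coincide, and the dashed line marks equal widths. Most points lie close to the line, and the point farthest from it is the place with a wild-type width of 175 bp and a K3R3 width of 625 bp.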

How the data were processed

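The authors deposited 4 lists of enriched regions, a looser (1e-09) and a stricter (1e-12) list for each of 2 libraries, with the thresholds named in the file headers. Each line is a chromosome, start and end in mm9, with no score, fold or p-value, and each list comes from a single library. Bowtie 0.12.3 and bedtools are named in the submitters' processing notes. The track lines share the tag LSWCE, whose meaning is not stated, and which caller, filters and control were used is not stated in the sources used here. All coordinates are multiples of 25 bp. A region list gives no read depth, so counts and widths were not adjusted for it.

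Regions, covered length, widths, gaps and overlaps (at least 1 bp) were computed with Python 3.11.15, numpy 2.4.6, scipy 1.17.1 and matplotlib 3.10.9, tested on simulated data and checked against bedtools 2.31.1. The rest of chromosome 13 runs from position 1 to its last region. Tiles of the windows' lengths were laid end to end along the chromosome. Coordinates are 1-based. Named by rule were, in each window, the 5 widest regions of each library, the library-specific regions, the 3 largest width ratios in each direction, the longest bare stretch and the regions next to each edge. The windows, lists and rules were chosen with earlier results of these data known, and the 50 kb bins, wide regions, close gaps and promoter motifs after their values were seen. Alternatives were the stricter lists, joining within 1000 bp, membership by midpoint, edges moved by 50 kb, and other definitions of overlap.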

Additional observations from a re-analysis of the deposited data

How the results depend on the processing

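No paired analysis was possible because there was a single library per group. Of 207 values recomputed under an alternative, 179 stayed within 1.5 times (counts and densities) or within a 95% interval (shares, ratios, medians). For shares and ratios this was the counting interval, and for medians it came from the ranked widths or gaps. Among the 179 were all shares, median widths and median gaps over the 2 windows. Covered length and the mean log2 width ratio were not judged by these limits. Every alternative value of either was counted as moved, however small the change. The main limit is the edges. Values are for wild type, then K3R3, over the 2 windows. With edges moved in by 50 kb there were 20 and 19 regions, 8.675 and 7.6 kb covered and 4 and 3 library-specific regions. Part of that fall comes from the shorter windows. Densities under this setting were 0.924 and 0.678 times the rest, against 1.18 and 0.944 as reported. With edges moved out by 50 kb 15.65 and 14.7 kb were covered, in the stricter lists 12.7 and 11.0 kb, and after joining within 1000 bp 16.4 and 16 kb, against 14.2 and 12.4 kb as reported. The mean log2 width ratio was 0.031 in the stricter lists, -0.038 after joining, and -0.18 with edges moved in or out (the cause was not tested). Counting the rest of the chromosome from its first region, added after seeing the data, gave densities of 1.15 and 0.920 times the rest. Few regions and unknown read depth limit all comparisons.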
